A study of Mus musculus with 2 samples.

Results

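mmu-miR-3960 and mmu-miR-2861 (miR-3960 and miR-2861) are neighbouring mouse miRNAs, and their 2 probes, matched by exact name, are described here out of 1900 mouse miRNA probes on each array. They were chosen by spot brightness, since the miR-3960 probe was among the 5 brightest on both arrays and both probes held their rank. Their intensities and ranks are therefore a description and were not tested. RNA came from isolated colonic epithelial cells of C57BL/6 mice labelled as 8 weeks old. The DSS group had received 2.5% dextran sulfate sodium, a polysaccharide that damages the lining of the colon, in the drinking water for 5 days, and the control group is labelled only as control. Each group is 1 array hybridised with Hy5-labelled total RNA (DSS n = 1, control n = 1), so no difference has a replicate check, no p-value was formed, and precision is limited by the number of arrays. The labels do not say how many mice gave the cells.

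A miRNA is a short RNA cut from a hairpin precursor, and bases 2 to 8 of the mature strand, the seed, pair with target mRNAs. In mouse osteoblasts miR-2861 is known to repress Hdac5, a histone deacetylase that lowers Runx2 protein, and miR-3960 to repress Hoxa2, a homeobox gene that restrains Runx2. Runx2, the transcription factor that drives bone formation, in turn acts on the miRNA cluster. These roles are background from bone cells and were not measured in the colon.

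Both hairpins are shown for their position and base composition. RefSeq (GRCm38.p6) places the Mir3960 hairpin on the minus strand at chr2:32712900-32712972 (73 bases) and the Mir2861 hairpin on the same strand at chr2:32712807-32712888 (82 bases). Capitals mark mature miR-2861 in its own hairpin, and in the Mir3960 hairpin the longest run that it shares with mature miR-2861 (10 bases).
mir-3960 hairpin: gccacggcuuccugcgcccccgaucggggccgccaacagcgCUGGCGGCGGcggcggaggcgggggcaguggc
mir-2861 hairpin: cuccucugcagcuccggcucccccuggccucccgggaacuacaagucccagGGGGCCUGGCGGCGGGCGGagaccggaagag
Mature miR-2861 lies at chr2:32712819-32712837 and occupies bases 52 to 70 of its hairpin, on the 3′ arm. Guanine and cytosine made up 82.2% of the Mir3960 hairpin and 73.2% of the Mir2861 hairpin, against a median of 51.7% over 1005 mouse hairpins of the RefSeq table. A higher share was found in 3 hairpins for Mir3960 and in 17 for Mir2861.

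The hairpins lie 11 bases apart, and of 986 pairs of neighbouring hairpins listed there, 0 had a smaller gap, leaving aside 24 pairs that overlap. The table is not complete, so this holds for its entries only. No other mature miRNA of the table lies within 10000 bases. The gene next to the hairpins is Cdk9, which codes for the kinase of P-TEFb that releases paused RNA polymerase II. Cdk9 is transcribed from the same strand and begins 22 bases downstream of the Mir2861 hairpin (gene chr2:32705782-32712784). The window from 250 bases before to 50 bases after the RefSeq start of Cdk9, chr2:32712735-32713034 on the minus strand, holds both hairpins whole. It is printed with the hairpins in capitals, Mir3960 first.
Cdk9 window: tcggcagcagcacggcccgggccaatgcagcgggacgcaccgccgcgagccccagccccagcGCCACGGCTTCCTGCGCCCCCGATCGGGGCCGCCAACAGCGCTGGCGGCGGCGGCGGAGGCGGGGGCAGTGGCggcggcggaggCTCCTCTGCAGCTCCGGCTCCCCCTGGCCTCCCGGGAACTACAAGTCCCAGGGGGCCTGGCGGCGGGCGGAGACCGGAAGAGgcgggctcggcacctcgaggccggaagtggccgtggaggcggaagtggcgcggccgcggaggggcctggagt
Counted from the Cdk9 start, Mir3960 spans −188 to −116 and Mir2861 −104 to −23. This window is 78.3% guanine and cytosine, and 1.60% of 32851 RefSeq windows of the same length have a higher share. The motif GGCGGCGG, searched on both strands, occurs 6 times in it on the Cdk9 strand, counting overlapping matches, and 0 times on the other strand. It occurs at least once in 7.35% of all windows. Of the 1005 hairpins, 8 hold the motif GGCGGCGG, with 3 overlapping matches in Mir3960 and 1 in Mir2861. In all, 20 hairpins lie whole inside such a window of another gene, 12 of them on that gene's strand. These matches describe the sequence and identify no binding site.

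The series as a whole gave signal above the blank spots on both arrays. Above the limit set by blank spots (mean plus 2 SD after trimming) lay 1169 miRNA probes on the DSS array and 1070 on the control array, with 995 on both. All 6 miRNAs fixed as gut epithelial markers, miR-192-5p, miR-194-5p, miR-215-5p, miR-200a-3p, miR-200b-3p and miR-200c-3p, were measured on both arrays. The limit leaves out the local background given with each spot, which 286 probes on the DSS array and 276 on the control array did not exceed. Among these were miR-192-5p on both arrays, and miR-200a-3p and miR-200c-3p on the control array. Of 5 leukocyte miRNAs 2 were measured on both arrays, namely miR-150-5p (80.6 over blanks on the DSS array and 13.7 on the control array) and miR-223-3p (30.3 on the DSS array and 17.4 on the control array), and their sum was 110.9 on the DSS array and 31.0 on the control array. miR-142a-5p passed the detection limit with DSS and not in the control, and miR-142a-3p and miR-155-5p were below the limit on both. The same sum was 890.0 on the DSS array and 883.7 on the control array for the gut epithelial list, 131.2 on the DSS array and 87.4 on the control array for 2 erythroid miRNAs, and 587.6 on the DSS array and 725.3 on the control array for 3 of smooth muscle. These sums were not scaled between the arrays, so they do not compare the content of cell types. The part of other cell types in the values of miR-3960 and miR-2861 was not tested. Spots of the spike controls had intensities of 31116 to 41416 on the DSS array and 16111 to 19854 on the control array.

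miR-3960 was one of the brightest probes, and miR-2861 was dimmer but also among the 20 brightest on both arrays. The miR-3960 spot had a median intensity of 12314 on the DSS array and 20226 on the control array, which is 94.1 and 203.0 times the detection limit of the DSS and the control array. The miR-2861 spot had 5973 on the DSS array and 9041 on the control array, or 45.6 and 90.7 times those limits. Both miRNAs were thus far above the blanks on both arrays, and both spots were dimmer on the DSS array before any scaling. Each probe has 1 spot per array, so no spread between spots of the same probe can be given. Brightness depends on how strongly a probe binds as well as on how much RNA is present, and it ranks no miRNA by abundance. In RNA of many cells, fewer cells that hold a miRNA and less of it per cell cannot be told apart.

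**Figure D1:**
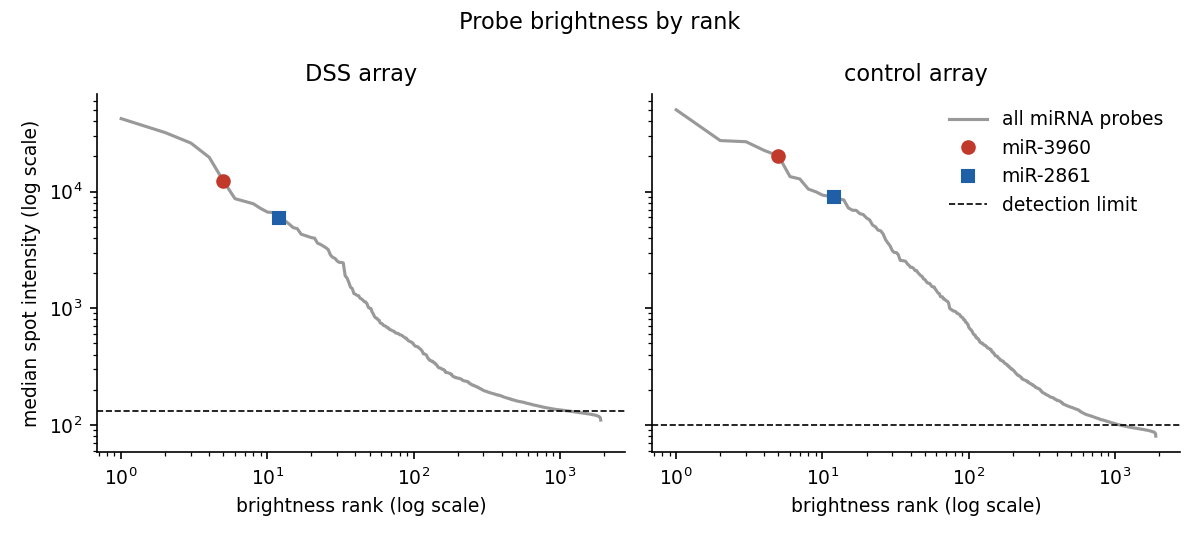
Median spot intensity of 1899 mouse miRNA probes against brightness rank (both axes logarithmic) on the DSS array (left) and the control array (right), with the detection limit dashed. miR-3960 sits at rank 5 and miR-2861 at rank 12 on both arrays, at 12314 and 5973 on the DSS array and 20226 and 9041 on the control array.

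In brightness order miR-3960 held rank 5 and miR-2861 rank 12 on each array. On the DSS array miR-3960 lay between miR-5126 (19658) at rank 4 and miR-2137 (8690) at rank 6. On the control array it lay between miR-6240 (22510) and miR-8113 (13431). Of these gaps, the one to miR-6240 on the control array was the smallest. miR-2861 had miR-6351 (6598) above it and miR-6955-5p (5692) below it on the DSS array, and miR-6914-5p (9132) above it and miR-328-5p (8639) below it on the control array. Its rank of 12 thus rested on small gaps. Of 17 probes among the 20 brightest on both arrays 4 held the same rank. Over all 1899 probes used, 16 did.

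Before scaling, both miRNAs were dimmer on the DSS array by similar factors, which the choice of probes that hold their rank favours. After subtraction of the blank mean, miR-3960 stood at 12192 on the DSS array and 20133 on the control array, a ratio of DSS to control of 0.606. miR-2861 stood at 5851 on the DSS array and 8948 on the control array, a ratio of 0.654. With background correction and no scaling, the log2 difference, DSS minus control, was −0.72 for miR-3960 and −0.61 for miR-2861. These values lie 0.11 apart. Repeated control spots within an array give 0.14 as the SD of a single log2 difference between the arrays, not of a gap between such differences. This SD leaves out differences between mice, cell isolations and hybridisations.

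Other bright probes were mostly dimmer on the DSS array too. Over blanks, 14 of the 17 shared bright probes were lower on the DSS array and 3 higher. For the probes nearest to miR-2861 in level, named below, the log2 ratio over blanks was −1.01 (miR-149-3p), −0.81 (miR-7044-5p), −0.73 (miR-6955-5p), −0.59 (miR-8110) and −0.36 (miR-6914-5p). Others near miR-3960 had −0.57 (miR-2137), −0.48 (miR-5126), −0.04 (miR-3154) and 0.51 (miR-6240). The members, at −0.72 (miR-3960) and −0.61 (miR-2861), lay inside this range. Of all 995 miRNAs measured on both arrays, many of them dim, 678 were lower on this scale. With no scaling the median difference of the 995 was −0.06, so miR-3960 lay 0.66 and miR-2861 0.55 below it. A difference below that of miR-3960 was found in 96 of the 995 (9.65%) and below that of miR-2861 in 130 (13.1%). These places hold for any scaling by 1 factor per array of values corrected by normexp with the offset of 50. Without an offset, as in the authors' values, 219 (22.0%) lay below miR-3960 and 266 (26.7%) below miR-2861.

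After quantile normalisation the difference was 0.00 for both miRNAs. This value follows from their ranks alone, since equal ranks receive equal values. Neither of the 2 probes reached 2-fold. Of the 995 miRNAs, 15 did so in either direction (1.51%), 5 higher (0.503%) and 10 lower (1.01%). The authors' deposited values were 9595 on the DSS array and 11330 on the control array for miR-3960, a log2 difference of −0.24. For miR-2861 they were 4605 on the DSS array and 5036 on the control array (−0.13). The median of the 995 was 0.21 on that scale, and 130 of them (13.1%) passed 2-fold, 89 higher (8.94%) and 41 lower (4.12%). Both miRNAs stood below the median there as well, by 0.45 for miR-3960 and 0.34 for miR-2861.

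The difference depended on the processing. Scaling to the spike controls, which moved the median of the 995 to −1.02, gave −1.69 for miR-3960 and −1.57 for miR-2861. Cyclic loess, a fit that removes trends with brightness, gave −0.16 for miR-3960 and −0.02 for miR-2861. The files also hold a local background for each spot. Its subtraction, followed by quantile normalisation, gave 1.17 for miR-3960, past 2-fold higher, and 0.00 for miR-2861. The 0.00 is again fixed by equal ranks, since miR-2861 ranked 6 on both arrays after subtraction. In that setting 42 of the 995 (4.22%) passed 2-fold, 21 of them higher (2.11%).

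**Figure D2:**
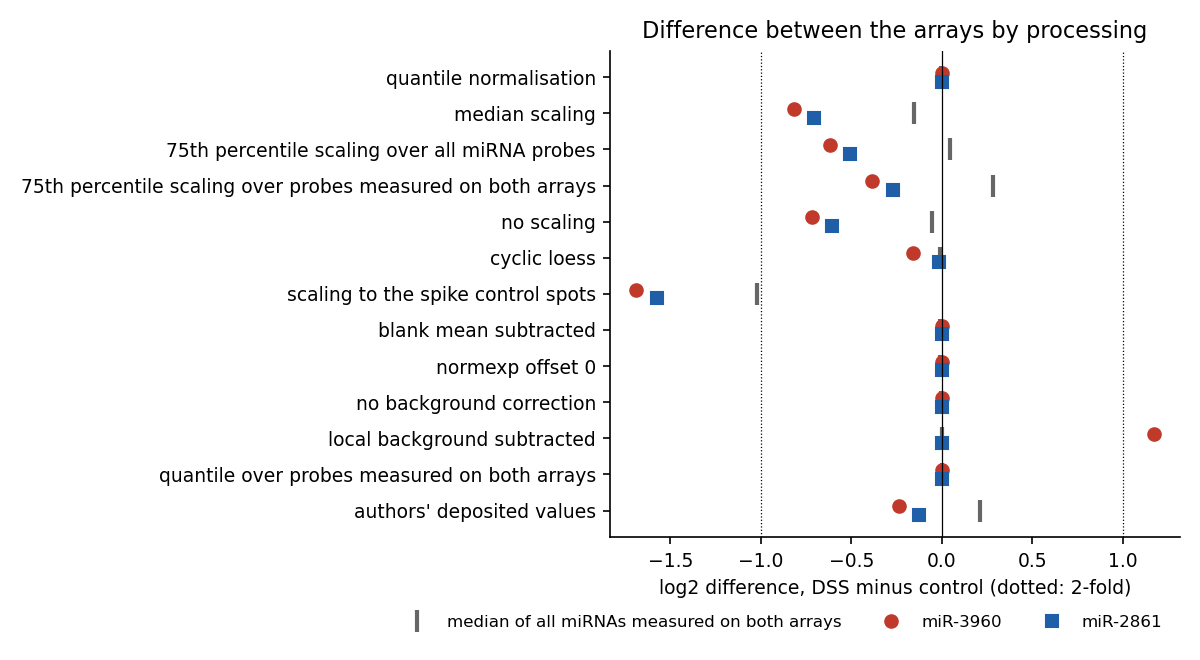
Log2 difference, DSS minus control, of miR-3960 (red circles) and miR-2861 (blue squares) under each processing, with the median of the 995 miRNAs measured on both arrays as grey bars and 2-fold as dotted lines. miR-3960 ranges from −1.69 with spike control scaling to 1.17 with the local background subtracted, and miR-2861 from −1.57 to 0.00.

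For miR-3960 the local background was 6645 on the DSS array and 18460 on the control array, or 54.0% of the spot on the DSS array and 91.3% on the control array. Subtracting it left 5668 on the DSS array and 1766 on the control array. For miR-2861 the local background was 3099 on the DSS array and 5969 on the control array (51.9% of the spot on the DSS array and 66.0% on the control array), which left 2875 on the DSS array and 3073 on the control array. The ratios of DSS to control were then 3.21 for miR-3960 and 0.936 for miR-2861, so the likeness of both miRNAs did not hold in this setting. After subtraction miR-3960 ranked 3 on the DSS array and 12 on the control array, while miR-2861 ranked 6 on both. The equal ranks of miR-3960 therefore hold only without this subtraction.

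**Figure D3:**
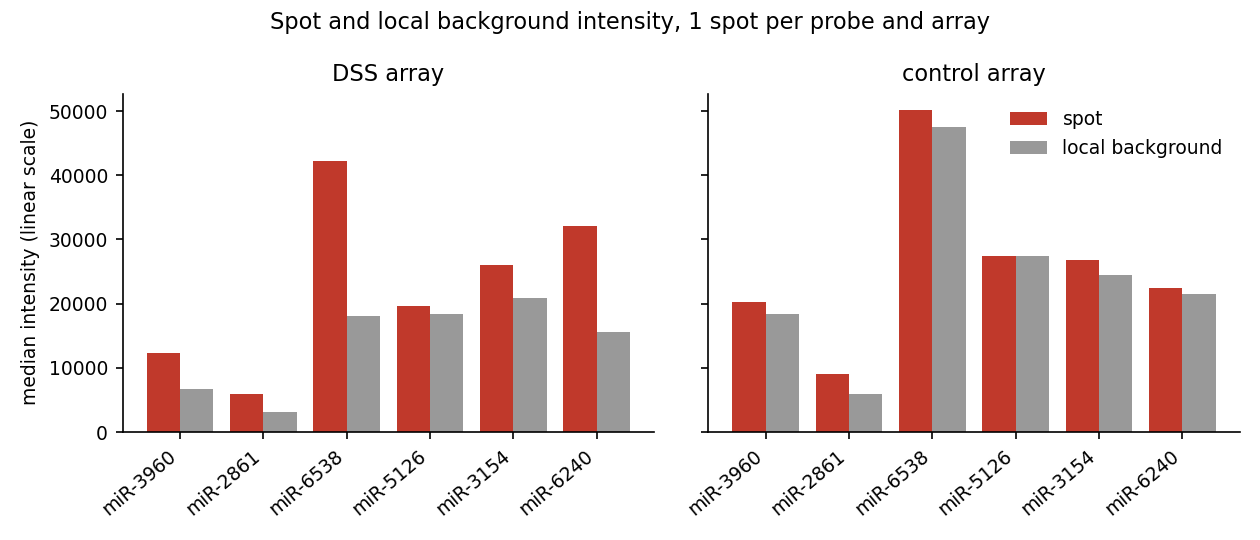
Median intensity (linear axis) of the spot (red) and of its local background (grey) for miR-3960, miR-2861 and the other 4 of the 5 brightest miRNAs, on the DSS array (left) and the control array (right). For miR-3960 the local background is 54.0% of the spot on the DSS array and 91.3% on the control array.

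High local backgrounds were common among bright probes. Over the 20 brightest probes the local background had a median of 67.3% of the spot on the DSS array (42.0% to 109%) and 84.3% on the control array (33.0% to 102%). Of the 8 spots that adjoin miR-3960 in its block, 7 had local backgrounds of at most 430.9 on the DSS array and 1186 on the control array, both at miR-3473b, and the exception was Spike Control 2, diagonal to miR-3960. That spike spot read 31576 on the DSS array and 18911 on the control array, with a local background of 13363 on the DSS array and 17818 on the control array. The 5 spots that adjoin miR-2861 had local backgrounds of 81.5 to 147.3 on the DSS array and 82.5 to 211.8 on the control array. No source used here says which area the local background covers.

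miR-3960 was also read differently on each array. Per the file headers, scans at 3 gains were combined through fitted lines, with r2 of at least 0.999216. Whole-number intensities occur only among the brightest spots, 20 on the DSS array (from 19658 up) and 21 on the control array (from 16111 up), and every other spot carries decimals. The miR-3960 value had decimals on the DSS array and was a whole number on the control array, so its values were not formed in the same way on both arrays. The other 4 of the 5 brightest miRNAs had whole numbers on both arrays. miR-2861 had decimals on both arrays. The effect of the gain on the difference was not tested.

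Of the 2 miRNAs, 1 (miR-2861) was matched to a mature sequence in the RefSeq table, so composition, motif and seed comparisons of mature miRNAs cover miR-2861 and not miR-3960. Of 1887 probes that name a single miRNA, 1613 (85.5%) were matched to 1 mature sequence. miR-2861 is 19 bases long and consists of 13 guanines, 5 cytosines, 1 uracil and 0 adenines. Its share of guanine and cytosine, 94.7%, was exceeded by 2 of the 1613 miRNAs, and its guanine share, 68.4%, also by 2. The medians were 52.2% for guanine and cytosine and 26.3% for guanine. Other miRNAs of extreme composition are shown to compare a bright with a dim probe, with each GGCGG in capitals.
miR-2861: ggggccuGGCGGCGGGCGG
miR-6538: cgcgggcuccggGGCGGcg
miR-5126: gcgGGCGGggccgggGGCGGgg
miR-8109: gcgccgcgugccggccgcggg

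Across the 1613 probes, spot intensity and the share of guanine and cytosine were correlated with Spearman's rho of 0.64 on the DSS array and 0.68 on the control array. Over the 856 of them measured on both arrays rho was 0.44 on the DSS array and 0.47 on the control array. Probes of an array share 1 RNA sample and 1 hybridisation and are no independent replicates. Probes for miRNAs with 80% or more (19 probes) had a median intensity over blanks of 504.0 on the DSS array and 1441 on the control array. Those from 40% to below 50% (396 probes) had 6.63 on the DSS array and 1.75 on the control array. Of the 19, 6 were among the 20 brightest probes on each array. miR-8109, with 95.2%, was dim, at 137.3 on the DSS array and 110.2 on the control array. Its guanine share was 52.4%, lower than that of miR-2861, and it holds 0 copies of GGCGG. miR-2137, with the same guanine share and 1 copy of GGCGG, was bright, at 8690 on the DSS array and 12823 on the control array. Others of the 19 were dim too, among them miR-6936-3p (126.2 on the DSS array and 91.9 on the control array) and miR-718 (131.7 on the DSS array and 99.7 on the control array). The reason why these probes were dim was not tested.

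**Figure D4:**
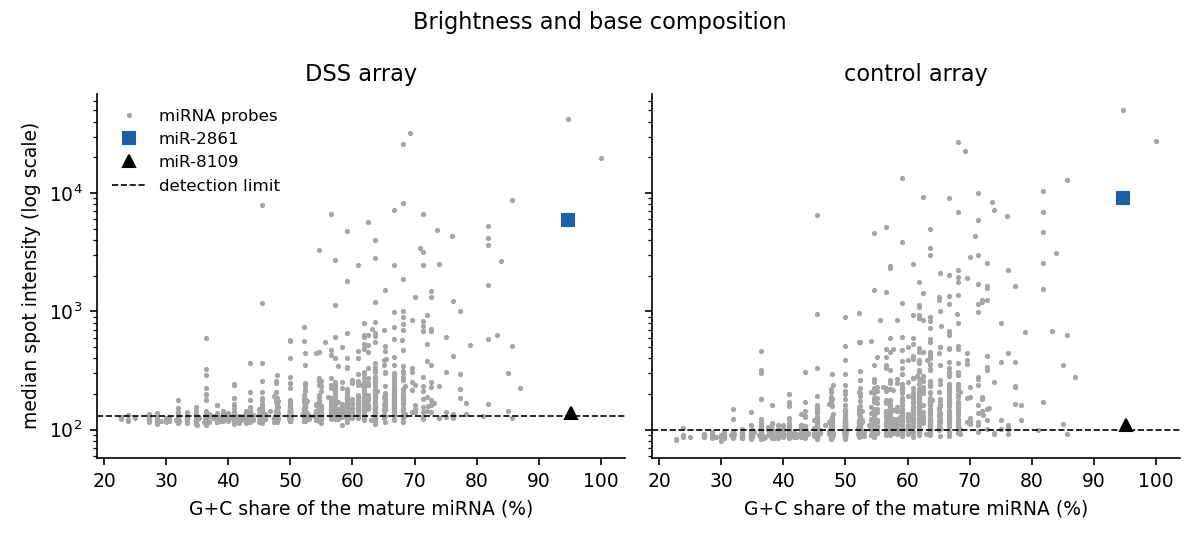
Median spot intensity (logarithmic axis) against the share of guanine and cytosine of the mature miRNA for 1613 probes, on the DSS array (left) and the control array (right), with the detection limit dashed. miR-2861 (square, 94.7%) stands at 5973 on the DSS array and 9041 on the control array, while miR-8109 (triangle, 95.2%) lies close to the limit on both.

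The motif GGCGG, counted on the miRNA strand with overlaps, occurred in 20 of the 1613 mature miRNAs (1.24%). miR-2861 held 3 copies, more than any other. Probes of the 20 had a median intensity of 654.6 on the DSS array and 1026 on the control array, against 135.2 on the DSS array and 104.5 on the control array over all 1613. Among them, 6 were in the 20 brightest on each array, and 19 were measured on both arrays. The exception, miR-290b-5p, is an arm of a hairpin of the embryonic miR-290 cluster and was below the limit on both. None of the 19 passed 2-fold after quantile normalisation, 8 being higher and 9 lower. Their median of 0.00 is the value of miR-2861 and miR-6538, which equal ranks fix at 0. Of all 995 measured on both arrays, 1.51% passed 2-fold, 48.1% were higher and 50.6% lower. At so low a share, 19 probes are too few for the count past 2-fold to tell carriers from other probes. The longer GGCGGC occurred in 8, namely miR-2861, miR-6538, miR-7044-5p, miR-5617-3p, miR-292b-5p, miR-6933-5p, miR-6241 and miR-290b-5p, with a median of 176.6 on the DSS array and 143.7 on the control array. The motif thus occurred in dim probes as well. The carriers were not matched to other probes by their share of guanine and cytosine, which also went with brightness. Over all matched probes with a share from 70% to below 80%, the median intensity was 231.7 on the DSS array and 237.8 on the control array. With 80% or more it was 625.8 on the DSS array and 1533 on the control array. The parts of motif and composition were not told apart.

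Guanine content also went with the difference between the arrays. Over the 856 probes rho between guanine share and log2 difference was −0.24 after quantile normalisation, −0.48 with no scaling, −0.42 in the authors' values and −0.05 with the local background subtracted. Brightness was higher with guanine share as well (rho 0.40 on the DSS array and 0.47 on the control array), and the parts of both were not told apart. Among the 16 miRNAs with 60% guanine or more the median difference was −0.16 after quantile normalisation, with 11 of the 16 below 0, against 51.4% of the 856. With the local background subtracted it was −0.17, with 10 below 0, against 49.6% of the 856. With no scaling it was −0.69, with 15 below 0, against 61.1% of the 856. On that scale miR-2861, at −0.61, lay inside this group, with 9 members lower and 6 higher. In the authors' values the median of the 16 was −0.29, with 14 below 0, against 36.0% of the 856. On that scale the median of the 856 was 0.21, and miR-2861 was at −0.13.

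One other mature miRNA in the table has the seed of miR-2861. It is miR-3091-3p at chr2:180257580-180257601 on the plus strand, printed below miR-2861 with the seed in capitals.
miR-2861: gGGGCCUGgcggcgggcgg
miR-3091-3p: cGGGCCUGaccagucucaagac
The probe for miR-3091-3p was at 130.9 on the DSS array, just under the limit, and at 101.6 on the control array, just above it. No level of the partner could be set beside miR-2861 on the DSS array.

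The probes nearest to each miRNA in the plane of both normalised log2 values were found by Euclidean distance over the 2 arrays. For miR-3960 they were miR-2137 (distance 0.83), miR-5126 (1.00), miR-6240 (1.00), miR-3154 (1.05) and miR-8110 (1.35). For miR-2861 they were miR-6955-5p (0.12), miR-6914-5p (0.22), miR-8110 (0.23), miR-7044-5p (0.33) and miR-149-3p (0.34). All of these rank among the 15 brightest probes on both arrays, since 2 arrays define no pattern beyond level and difference. The distances were larger for miR-3960 than for miR-2861.

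miRNAs that act on Runx2 were dim beside miR-3960 and miR-2861, which were chosen by brightness. For scale, the median spot intensity of all measured probes was 153.6 on the DSS array and 137.1 on the control array. Of a panel of 11 that are known to repress Runx2, 4 were measured on both arrays, 4 on neither, 2 on the DSS array alone and 1 on the control array alone. After quantile normalisation 3 of the 4 were higher on the DSS array, 1 was lower and 0 passed 2-fold, with a median log2 difference of 0.36. Of all 995, 48.1% were higher, 1.51% passed 2-fold and the median was −0.004. miR-23a-3p, from a cluster with miR-24 and miR-27a, had a spot intensity of 259.1 on the DSS array and 219.3 on the control array (log2 difference 0.51), where its local background of 242.6 exceeded the spot. miR-30c-5p had 207.9 on the DSS array and 170.0 on the control array (0.36). miR-205-5p, an epithelial miRNA that represses ZEB factors, had 152.4 on the DSS array and 102.7 on the control array (0.36), the second value close to the limit of 99.6. miR-133a-3p, of muscle, had 156.7 on the DSS array and 140.3 on the control array (−0.05).

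Of 7 further miRNAs described as promoting bone formation, 4 were measured on both arrays and 3 on neither. After quantile normalisation 4 of the 4 had values above 0 and 0 passed 2-fold, with a median of 0.21. The marker lists fixed for cell types had medians of the same sign, at 0.44 for gut epithelial (6 of 6 above 0), 0.65 for leukocyte (2 of 2), 0.46 for erythroid (2 of 2) and 0.06 for smooth muscle (2 of 3). Over blanks the smooth muscle miRNAs were lower on the DSS array, with ratios of DSS to control of 0.732, 0.742 and 0.831. In the gut list miR-200b-3p (0.741) and miR-200a-3p (0.978) were lower too, and the other gut miRNAs were higher. These signs thus depended on the scale. Of the bone-forming miRNAs, miR-15b-5p, of the miR-15/16 family, had 166.3 on the DSS array and 106.6 on the control array (0.55). Its local background was 163.6 on the DSS array and 116.5 on the control array, where it exceeded the spot. miR-210-3p, induced by hypoxia, had 164.6 on the DSS array and 119.3 on the control array (0.32). miR-29a-3p had 186.4 on the DSS array and 169.1 on the control array (0.10), and miR-29b-3p 143.5 on the DSS array and 108.8 on the control array (0.10). Both differences lie within the spread of 0.14 from control spots, and over blanks miR-29a-3p was at 64.6 on the DSS array and 76.4 on the control array. On the control array the local background of miR-29a-3p, 171.1, exceeded its spot. The miR-29 miRNAs belong to a family that represses collagen genes.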

How the data were processed

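Hy5-labelled total RNA of 2 samples was hybridised to 1 array each, per the labels, and samples were grouped by the agent in their labels. The authors' deposited scanner files give 1 median spot intensity and 1 background intensity for each of 3200 spots on a linear scale, combined from 3 gains per the file headers. Their deposited value table holds processed intensities. These equal the spot intensity minus the trimmed blank mean times 0.787 (DSS) or 0.563 (control), with a largest relative deviation of 1.7e-07, so scale, centring and array are settled. The trim removed 5% of 896 blanks at each end. No source used here names the array maker or scanner software.

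Background was corrected by the normexp model of limma 3.58.1 (R 4.3.3; offset 50, all spots), and values were log2 transformed and quantile normalised over 1899 probes. The offset shrinks folds of dim probes. One probe with a poor flag was left out, and 12 probes name several miRNAs. The deposited local background was not subtracted in the main setting. The procedure was tested on simulated arrays. Sequences, hairpins and windows came from RefSeq tables (GRCm38.p6). Of the 2 members both matched a hairpin and 1, miR-2861, a mature sequence.

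The members and the lists were chosen with earlier results of these data known. Named miRNAs were both members, the 5 brightest, the 5 nearest to each member, seed partners, carriers of GGCGG or GGCGGC, and measured members of both lists. miR-8109, miR-290b-5p, miR-8113, miR-328-5p, miR-6351 and miR-3473b were named after their values were seen. Other settings covered scaling, background correction, the authors' values, the detection limit and the fold threshold.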

Additional observations from a re-analysis of the deposited data

How the results depend on the processing

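With 1 array per group no setting carries a test, and a move was judged against 0.14, the SD of a log2 difference from repeated control spots. The log2 difference of miR-3960 (0.00 after quantile normalisation) was −0.82 when medians were equated, −0.62 and −0.38 when the 75th percentiles of all probes and of those measured on both arrays were, −0.72 without scaling, −0.16 with cyclic loess, −1.69 with spike control scaling, −0.24 in the authors' values and 1.17 with the local background subtracted. That of miR-2861 was −0.70, −0.51, −0.27, −0.61 and −1.57 with median, both percentile, no and spike control scaling, and within 0.14 of 0 otherwise. Quantile normalisation gave 0.00 for both miRNAs with blank subtraction, with offset 0, with no background correction and over probes measured on both arrays. Equal ranks fix that value, so these settings could not move it. The 0.00 of miR-2861 with the local background subtracted, also quantile normalised, is fixed in the same way. The 15 miRNAs past 2-fold became 63 when medians were equated, 43 when 75th percentiles of all probes were, 52 without scaling, 549 with spike control scaling, 78 with blank subtraction, 41 with offset 0, 9 with no background correction, 42 with the local background subtracted, 130 in the authors' values and 74 at 1.5-fold. The ranks of 5 for miR-3960 became 3 (DSS) and 12 (control) after the local background was subtracted, and those of 12 for miR-2861 became 6 on both arrays. The Spearman correlation of brightness with the share of guanine and cytosine was 0.44 (DSS) and 0.47 (control) over probes measured on both arrays, in place of 0.64 (DSS) and 0.68 (control). The Spearman correlation of guanine share with the difference moved from −0.24 to −0.48 with no scaling, −0.42 in the authors' values and −0.05 with the local background subtracted, settings added after the data were seen. The causes were not tested. A limit at 3 SD left 934 probes measured on the DSS array and 976 on the control array. No paired analysis was possible because each group has 1 array.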
